A study of Mus musculus with 4 samples.

Results

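The desmosome genes were followed across the skin, its appendages and the vessels of mouse digits, in a study of digit tip regeneration. The set held 10 genes, fixed by symbol, of 33696 genes in each count table. They were 5 desmogleins (Dsg1a, Dsg1b, Dsg2, Dsg3 and Dsg4), 3 desmocollins (Dsc1, Dsc2 and Dsc3), the plakophilin Pkp1 and desmoplakin, Dsp. All 10 symbols were found in all 4 libraries. Their unique molecular identifiers (UMIs, each standing for 1 captured RNA molecule) were summed over keratinocytes, hair, sebaceous gland, sweat gland and endothelium, which held 20213 of 29076 kept cells in the SAR131675 library, 16175 of 24030 in the control diet library, 9380 of 19827 in the LNR library and 10731 of 20669 in the sham library.

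Desmosomes are spot-like junctions that hold epithelial cells together. Desmogleins and desmocollins are cadherins that reach across the gap between neighbouring cells. Inside the cell they bind plakoglobin (Jup) and plakophilins, and desmoplakin ties this plaque to the keratin filaments. In stratified skin the cadherins are layered, with Dsg3 and Dsc3 known from the lower layers and Dsg1 and Dsc1 from the upper layers, and Dsg1 and Dsg3 are the targets of pemphigus autoantibodies. Endothelial cells build adherens junctions on Cdh5 in place of classical desmosomes, although lymphatic endothelium is known to use desmoplakin in some junctions.

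The libraries came from the third phalanx (P3) region of hindlimb digits 2 to 4 of female mice aged 6 to 8 weeks, C57BL/6 by the labels and C57BL/6J by the study's methods, with the digits of 10 mice pooled in each. By those methods the digits were taken at the proximal level of the second phalanx (P2), so the pools may hold tissue beyond P3. The study's injury was made on digits 2 and 4, so some pooled digits may have been uninjured. In the first pair, mice received chow with SAR131675, an inhibitor of the lymphatic growth factor receptor VEGFR3, at 30 mg per kg of chow for 8 days by the series' design text, or the matched control diet. In the second pair, lymph nodes draining a hindlimb had been removed (LNR), or the limb was a sham control, which its sample label gives as untreated. The study describes the sham limb as the opposite limb of the operated animals, so both libraries of this pair may come from the same mice, which the labels do not state. The study worked on amputated digit tips and began the chow before amputation, but the labels give neither amputation nor the day on which digits were taken. The labels name no allele or transgene in any group. Each condition was 1 library and each library its own batch in the labels, so that condition and batch, and in the diet pair the pool of mice as well, cannot be told apart and no p-value was possible. All intervals given are 95% intervals that cover counting error only, except the ranges of means over the libraries of a pair, described with them.

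After filtering the libraries held between 142866794 and 339642813 UMIs. The median cell held 11316 and 10712 UMIs in the SAR131675 and control diet libraries, but 5725 and 5851 in the LNR and sham libraries, and the file headers named different versions of the counting software for the 2 pairs. Levels are therefore compared within a pair, and the pairs are set side by side only for their order of classes. A level is given as CPM, the UMIs of a gene in a class scaled to a fixed total of UMIs for the class, and as these were 3′ end counts it was not divided by transcript length. Cells of a pair shared 210 barcodes in the diet pair and 101 in the surgery pair, 0.874% and 0.509% of the smaller library. Where 4 values follow each other, they are from the SAR131675, control diet, LNR and sham libraries in that order.

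Keratinocyte-like cells numbered 17011, 13954, 7539 and 8743. They comprised basal, cycling, spinous and volar, granular, infundibulum, outer follicle and nail-type classes, all formed and named without the desmosome genes. Spinous and volar clusters were pooled, since their names did not hold between the pairs. The granular class differed between the pairs, with a UMI of the cornified envelope gene Flg2 in 74.5% and 70.0% of its cells in the diet pair and in 23.2% and 19.3% in the surgery pair. The name of the nail-type class rested on markers found in a minority of its cells, with Krt42 in 12.6%, 7.54%, 11.2% and 14.4% of them. Lymphatic endothelial cells (LECs) were well marked, with Prox1 detected in 94.5%, 91.7%, 73.0% and 74.4% of their cells.

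The desmosome genes were largely genes of the keratinocytes. Of all Dsp UMIs in kept cells, 90.3%, 92.3%, 82.7% and 78.6% lay in keratinocyte-like cells, and for Dsg1a the shares were 92.3%, 94.0%, 89.4% and 82.3%. Dsg4 was the exception among the 10, with 91.0%, 89.2%, 67.9% and 67.2% of its UMIs in hair and inner root sheath cells. In the sham library 5.36% of Dsp UMIs and 8.29% of Dsc1 UMIs fell in an epithelial cluster left unnamed, led by Krt71, S100a3 and Krt25, that held 386 sham cells and only 8 LNR cells.

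**Figure D1:**
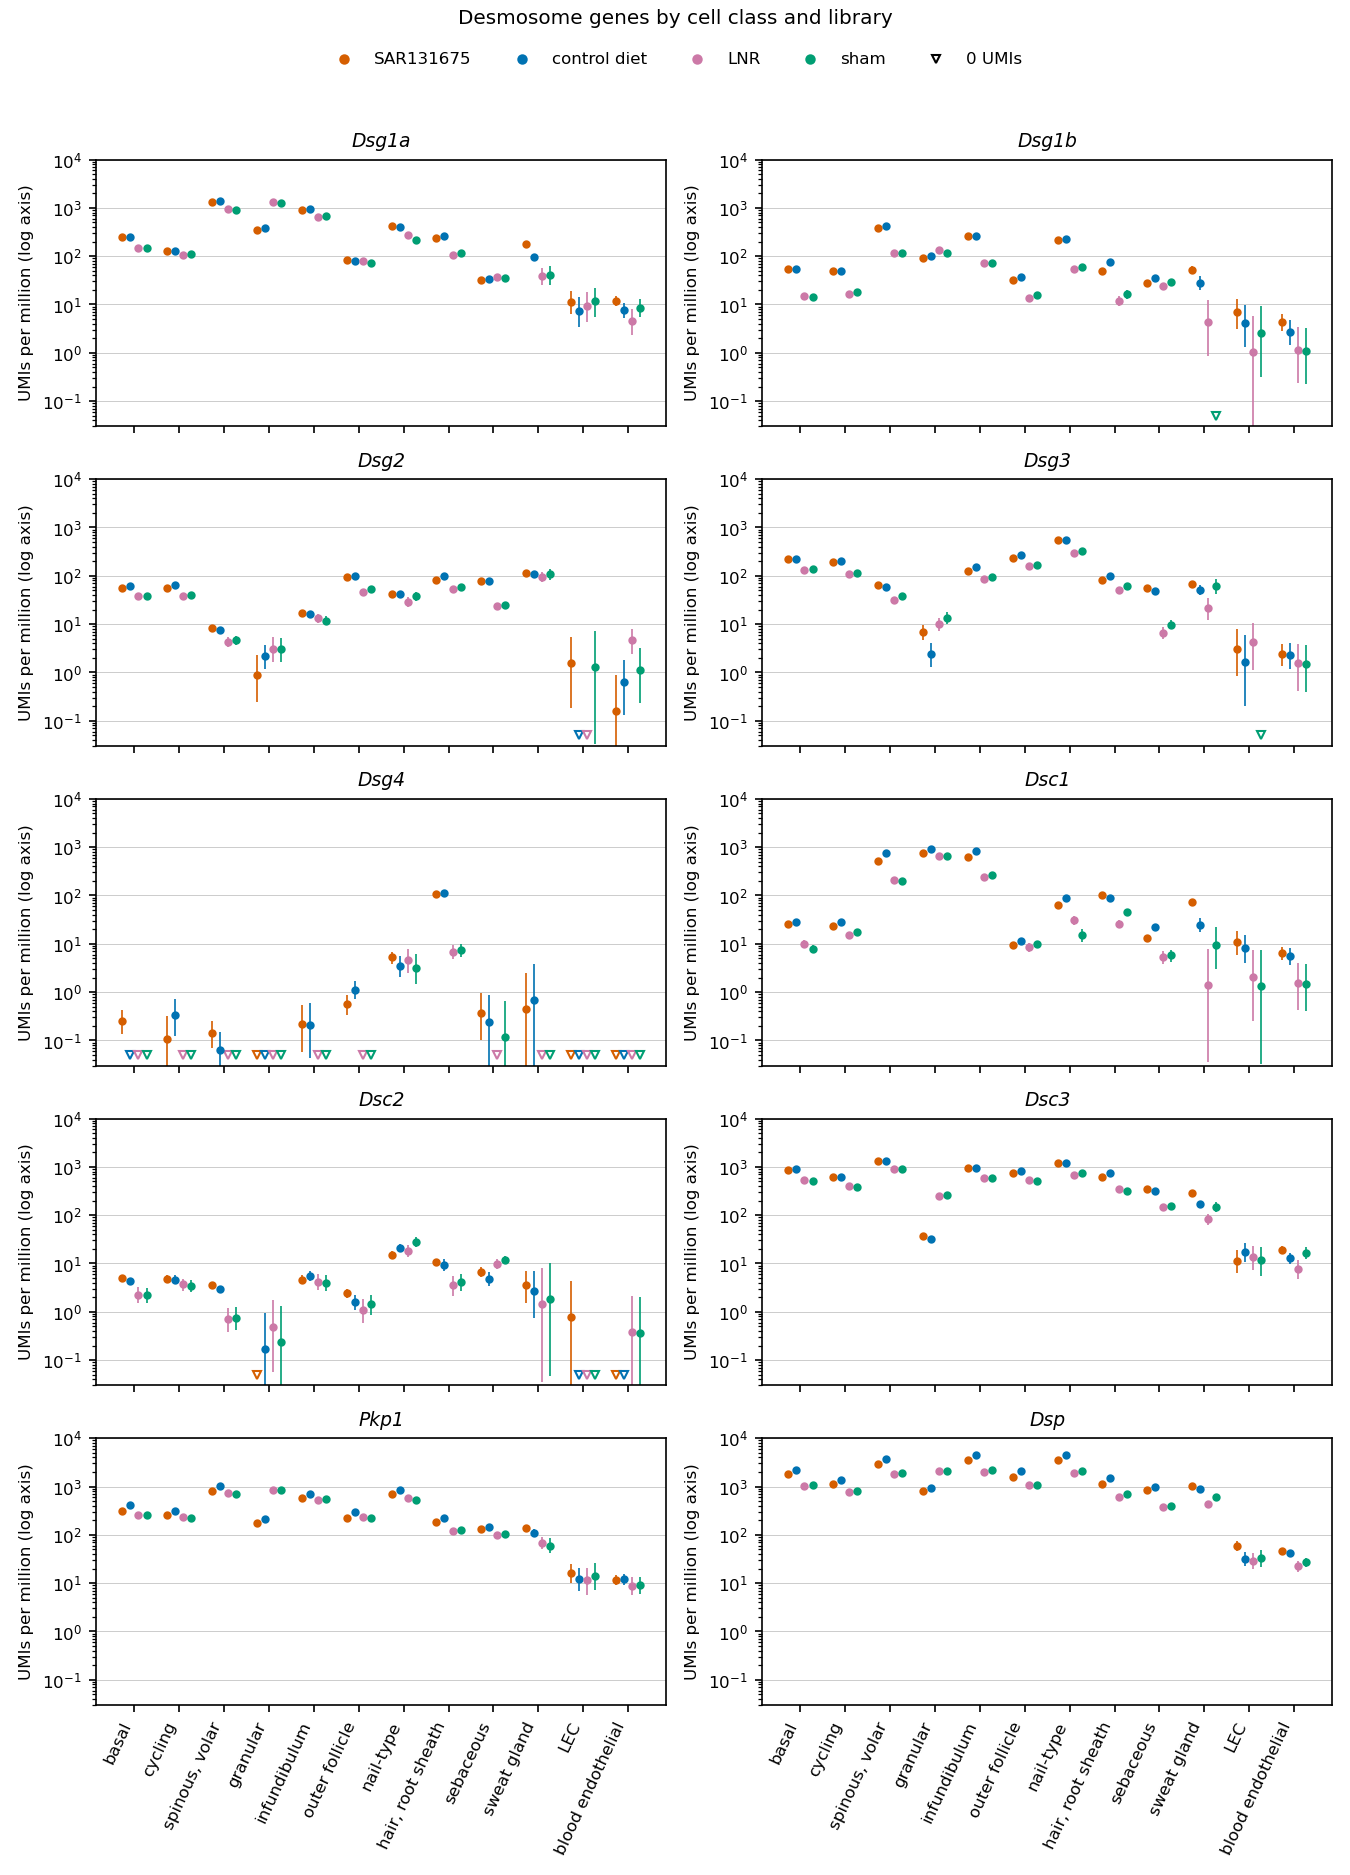
Level of each desmosome gene (CPM, log scale) by cell class in each of the 4 libraries; points are single libraries and bars are exact Poisson 95% intervals of the UMI count. Dsp was the most abundant of the 10 in keratinocyte-like cells of every library, Dsg4 was highest in hair, and for Dsp, Dsc3 and Pkp1 both endothelial classes sat below every keratinocyte class.

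Dsp (ENSMUSG00000054889), the linker to keratin, was the most abundant of the 10 by CPM. Its level in keratinocyte-like cells was 2286 (2280 to 2293), 2937 (2929 to 2945), 1390 (1381 to 1398) and 1439 (1431 to 1447) CPM. In the diet pair it was highest in nail-type cells, at 3545 and 4442 CPM, and in the infundibulum, at 3499 and 4536 CPM. In the surgery pair these classes, at 1933 and 2065 CPM and 1985 and 2216 CPM, stood close to the granular class at 2143 and 2058 CPM. Basal cells held 1782, 2198, 1029 and 1091 CPM, and cycling cells 1137, 1389, 788 and 822 CPM, the lowest of the keratinocyte classes except the granular cells of the diet pair at 817 and 927 CPM. No keratinocyte class was without Dsp.

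Pkp1 (ENSMUSG00000026413), the plakophilin that strengthens desmosomes of stratified epithelia, was more layered. It stood at 315, 408, 258 and 254 CPM in basal cells and at 826, 1027, 739 and 712 CPM in spinous and volar cells, and was also high in nail-type cells at 696, 866, 569 and 532 CPM. The outer follicle was lower, at 224, 296, 232 and 220 CPM. Granular cells of the diet pair held 174 and 208 CPM, whereas those of the surgery pair held 853 and 848 CPM, in the class whose Flg2 content also differed between the pairs.

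The desmogleins divided the epidermis by layer. Dsg1a (ENSMUSG00000069441) was at 251, 247, 149 and 149 CPM in basal cells and at 1289, 1357, 924 and 918 CPM in spinous and volar cells. Dsg1b (ENSMUSG00000061928) followed it at a lower level, at 54.8, 55.2, 14.7 and 14.3 CPM in basal cells and 383, 413, 119 and 117 CPM in spinous and volar cells. Because Dsg1a, Dsg1b and Dsg1c are near-identical copies, reads may have been split between them, and their single values are uncertain. Dsg1c was nearly undetected in keratinocyte-like cells, at 0.374, 0.370, 0.226 and 0.167 CPM.

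Dsg3 (ENSMUSG00000056632), the desmoglein of the lower layers, ran the other way. Its level was 221, 228, 131 and 141 CPM in basal cells, 64.8, 59.7, 31.9 and 37.5 CPM in spinous and volar cells, and 6.81, 2.38, 10.0 and 13.5 CPM in granular cells. The highest class was not basal but nail-type, at 546, 553, 297 and 326 CPM, followed by the outer follicle at 231, 271, 162 and 166 CPM. Dsg3 in nail-type cells exceeded Dsg3 in basal cells in all 4 libraries.

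Dsg2 (ENSMUSG00000044393), the desmoglein shared with simple epithelia and heart, was low in the upper epidermis and highest in the sweat gland and follicle. Sweat gland cells held 117 (103 to 132), 109 (93.0 to 127), 95.1 (73.7 to 121) and 109 (82.7 to 141) CPM, against 56.6, 60.1, 37.8 and 38.8 CPM in basal cells and 8.13, 7.68, 4.31 and 4.62 CPM in spinous and volar cells. The outer follicle stood between, at 93.2, 97.8, 46.8 and 52.1 CPM, as did hair and inner root sheath at 82.0, 101, 53.8 and 58.5 CPM. Granular cells held 4, 13, 13 and 13 UMIs of Dsg2 in all.

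Dsg4 (ENSMUSG00000001804), the desmoglein of the hair shaft, was the most restricted. Hair and inner root sheath cells held 108, 112, 6.80 and 7.47 CPM from 1711, 561, 36 and 43 UMIs. Keratinocyte-like cells held 0.440, 0.294, 0.184 and 0.116 CPM, and within them the nail-type class reached 5.22, 3.52, 4.62 and 3.21 CPM. In the surgery pair the nail-type cluster led by Krt6a and Krt75 held Dsg4 at 10.2 and 8.53 CPM, no less than the 7.13 and 7.39 CPM of the hair cluster led by Krt35. No Dsg4 UMI was found in granular, LEC or blood endothelial-like cells, which allows up to 0.659, 0.510, 0.716 and 0.697 CPM in granular cells and up to 2.30, 2.48, 3.15 and 3.92 CPM in LECs. The hair class was a single cluster led by the inner root sheath and hair keratins Krt25, Krt71 and Krt35 in the diet pair, and mostly a Krt35 cluster in the surgery pair, so its level is not compared between the pairs.

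As shares of all desmoglein UMIs, Dsg1a and Dsg1b together made up 52.4% (51.8 to 53.0), 51.2% (50.6 to 51.8), 49.3% (47.8 to 50.7) and 47.6% (46.2 to 49.1) of the basal class and 95.8%, 96.4%, 97.2% and 96.7% of the suprabasal class, which pools spinous, volar and granular cells. The suprabasal share was higher by 44.3 percentage points (43.6 to 45.0) in the diet pair and by 48.5 (46.8 to 50.2) in the surgery pair. The infundibulum, at 88.7%, 88.0%, 88.0% and 87.9%, stood near the suprabasal layers. In the outer follicle Dsg3 led instead, with 52.3%, 55.6%, 54.0% and 54.5% of desmoglein UMIs, and Dsg1a and Dsg1b held 26.4%, 24.2%, 30.4% and 28.5%. Among the classes described, Dsg2 led in the sweat gland of the surgery pair, with 59.8% and 51.3%, and in the sebaceous class of the diet pair, with 40.0% in both libraries.

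**Figure D2:**
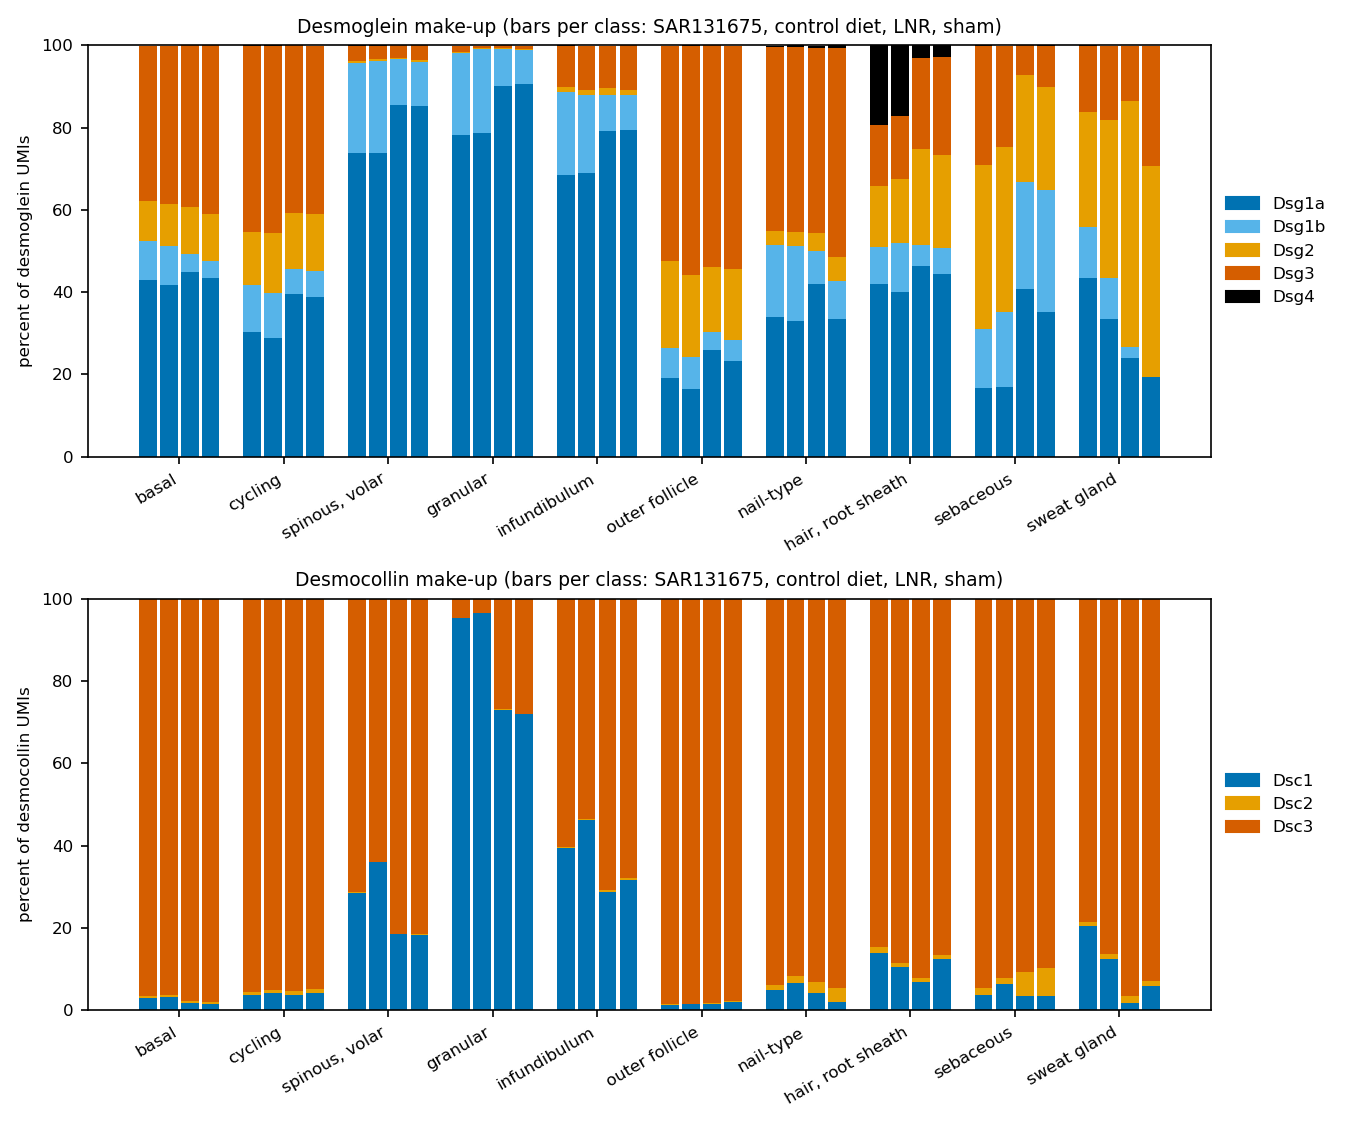
Share of desmoglein UMIs (Dsg1a, Dsg1b, Dsg2, Dsg3, Dsg4) and of desmocollin UMIs (Dsc1, Dsc2, Dsc3) in percent, by cell class and library; each bar is 1 library and sums to 100. Dsg1a and Dsg1b held over 95% of the desmoglein UMIs of spinous and volar and of granular cells in all 4 libraries and about 50% in basal cells, and Dsc3 dominated the desmocollins except in granular cells.

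Among the desmocollins, Dsc3 (ENSMUSG00000059898), the one needed in the basal layer, was the main gene nearly everywhere. Basal cells held 842, 896, 532 and 518 CPM, which was 96.5%, 96.4%, 97.7% and 98.1% of their desmocollin UMIs. Spinous and volar cells held 1315, 1320, 902 and 901 CPM and nail-type cells 1206, 1217, 683 and 749 CPM. In granular cells Dsc3 was low, at 37.1, 31.8, 246 and 258 CPM. Dsc3 was thus higher in spinous and volar cells than in basal cells in each library, and low in granular cells.

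Dsc1 (ENSMUSG00000044322), the desmocollin of the upper layers, was highest there. It stood at 25.6, 28.9, 10.1 and 7.90 CPM in basal cells, 526, 744, 206 and 203 CPM in spinous and volar cells, and 759, 923, 670 and 662 CPM in granular cells. Its share of desmocollin UMIs was 2.93%, 3.11%, 1.86% and 1.5% in basal cells and 95.3%, 96.7%, 73.1% and 72% in granular cells. The infundibulum also held much Dsc1, at 615, 821, 237 and 270 CPM, while the outer follicle held 9.30, 11.3, 8.48 and 9.71 CPM.

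Dsc2 (ENSMUSG00000024331), the widely expressed desmocollin, was scarce. Keratinocyte-like cells held 4.39, 3.82, 2.66 and 2.96 CPM, which was 0.354%, 0.264%, 0.369% and 0.415% of their desmocollin UMIs. Nail-type cells were the highest keratinocyte class at 15.1, 20.9, 18.5 and 28.2 CPM, from 142, 95, 52 and 79 UMIs. Sebaceous cells held 6.80, 4.85, 9.72 and 11.8 CPM.

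The same division appeared when keratinocytes were ordered by keratins and not by clusters. Cells were put into 5 bins by the share of the suprabasal keratins Krt1 and Krt10 among UMIs of Krt1, Krt10, Krt5 and Krt14. The first bin (0 to 20%) held 4744, 3812, 2279 and 2654 cells and the last bin (80 to 100%) 4511, 4443, 1614 and 1862 cells. The share of desmoglein UMIs from Dsg1a and Dsg1b was higher in each successive bin of every library, passing from 39.0% to 97.0%, 37.2% to 97.5%, 35.2% to 97.8% and 32.2% to 97.3%.

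On the log2 scale Dsc1 differed most between the first and the last bin. In the first bin it was at 13.7, 13.3, 4.68 and 4.86 CPM, in the fourth at 83.6, 102, 79.4 and 78.5 CPM, and in the last at 577, 814, 311 and 298 CPM. Dsg1a was higher by 3.15, 3.26, 3.69 and 3.75 on the log2 scale in the last bin than in the first, and Dsc1 by 5.39, 5.93, 6.05 and 5.94. Dsg2 ran the other way, with log2 differences of -3.72, -3.99, -4.03 and -3.99, followed by Dsg3 with -2.27, -2.50, -2.40 and -2.22. Pkp1 (1.66, 1.59, 1.86 and 1.92), Dsp (1.00, 0.97, 1.2 and 1.18) and Dsc3 (0.88, 0.77, 0.95 and 1.02) were higher in the last bin by less. All of these genes and Dsg1b ran in a single direction over the 4 steps of each library. Dsc2 did not, and Dsg4, with at most 10 UMIs in any bin, was too sparse to be followed.

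**Figure D3:**
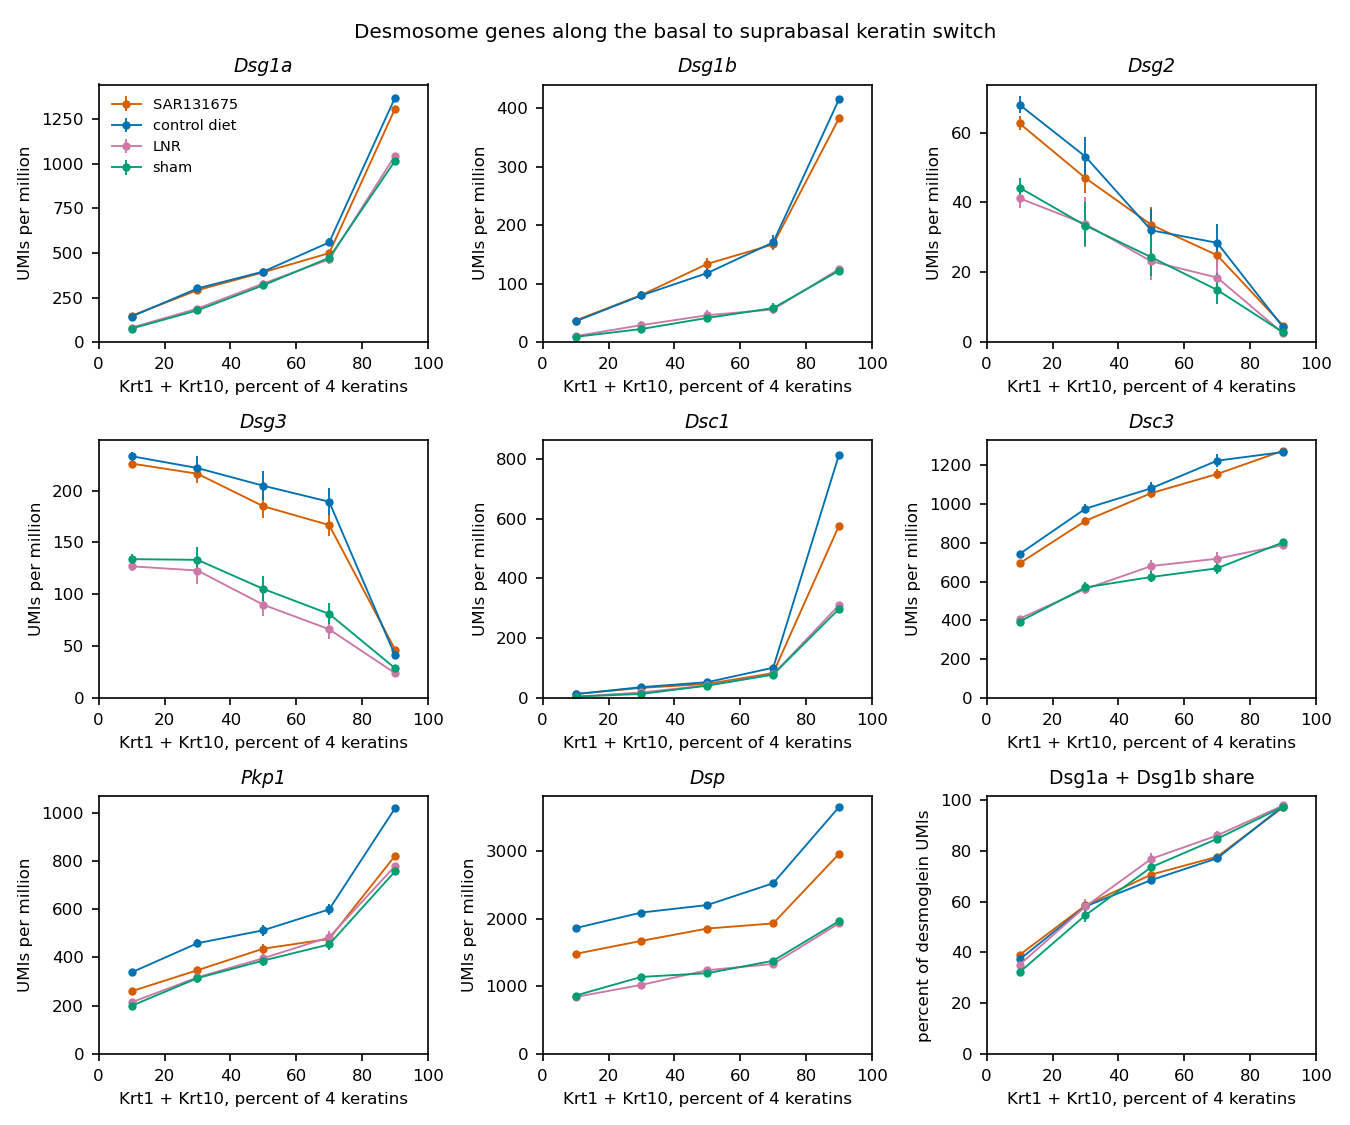
Level (CPM, linear scale) of 8 desmosome genes, and in the last panel the percent of desmoglein UMIs from Dsg1a and Dsg1b, against the share of Krt1 and Krt10 among 4 keratins, in 5 bins of 20 percentage points; lines join the bins of a library and bars are exact 95% intervals. Dsg1a, Dsg1b and Dsc1 were higher, and Dsg2 and Dsg3 lower, in each successive bin of all 4 libraries.

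Within the suprabasal layers, clusters led by Krt9 differed from clusters led by Krt2. The diet pair's clusters of both kinds were named volar, a name that rested on few cells, since Krt9 was found in 8.82% and 4.67% of the volar class. In the diet pair the cluster led by Krt9, the keratin of palms and soles, held Dsg1a at 884 and 865 CPM, against 1557 and 1608 CPM in the cluster led by Krt2 and Pla2g4f. In the surgery pair the Krt9 cluster held Dsg1a at 571 and 567 CPM, against 1268 and 1249 CPM in the cluster led by Serpinb12 and Krt2. Dsc1 differed more, at 156, 169, 72.7 and 84.9 CPM in the Krt9 clusters and 570, 746, 335 and 314 CPM in the Krt2 clusters. Dsg3 was the reverse, at 108, 113, 54.9 and 66.8 CPM against 14.2, 15.1, 9.59 and 9.85 CPM. The Krt9 clusters thus held less Dsg1a and Dsc1 and more Dsg3 than the Krt2 clusters in all 4 libraries, as a description of clusters.

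The highest Dsc1 of any cluster was in a diet pair cluster led by the antimicrobial and secreted genes Wfdc17, Wfdc12 and Slurp1, with 1371 CPM in 675 SAR131675 cells and 1754 CPM in 844 control diet cells. Its Dsc3 stood at 837 and 829 CPM and its Dsg3 at 4.93 and 2.68 CPM. A cluster led by Skint5 and Skint6 held the highest Dsg1a, at 2250 and 2111 CPM in 432 and 326 cells.

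Nail-type cells also fell into clusters of unlike makeup. The Krt6a clusters held Dsg3 at 659, 704, 571 and 546 CPM, with Dsp at 3775, 4973, 2709 and 2999 CPM. The clusters led by Spink12, Krt42 and Krt16 held Dsg3 at 387, 374, 209 and 235 CPM and Dsp at 3224, 3809, 1682 and 1678 CPM. Dsc1 was the lower in the Krt6a clusters, at 21.6, 46.6, 10.2 and 4.88 CPM against 123, 139, 37.6 and 19.2 CPM. Krt6a and Krt16 are keratins of nail bed, hair follicle and wounded epidermis, and these states were not separated here.

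The scarce Dsc2 reached its highest levels in a few small clusters, although most of its UMIs lay elsewhere. In the surgery pair a sebaceous cluster led by the lipid genes Scd3, Akr1c21 and Awat1 held Dsc2 at 44.1 (34.4 to 55.6) and 45.5 (36.5 to 56.2) CPM in 84 LNR and 111 sham cells. The other sebaceous clusters of that pair held between 0.419 and 2.70 CPM of Dsc2. In the diet pair the sebaceous cluster led by Serpina3j, Far2 and Fa2h held 12.6 and 10.7 CPM of Dsc2, against 4.75 and 1.83 CPM in the cluster led by Pparg. These lipid clusters held Dsg2 at 29.1, 30.8, 0.621 and 2.62 CPM, against 95.3 and 103 CPM in the Pparg cluster of the diet pair and 39.4 and 48.6 CPM in that of the surgery pair. They held Dsg1b at 70.0, 78.8, 85.1 and 81.1 CPM, against 12.4 and 13.8 CPM in the Pparg cluster of the diet pair and 2.97 and 6.29 CPM in that of the surgery pair. In each pair the lipid cluster thus held less Dsg2 and more Dsg1b and Dsc2 than the cluster with Pparg among its leading genes.

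Keratinocyte clusters with high Dsc2 were small too. A cluster led by Fut9, Ctnnd2 and Pappa held Dsc2 at 57.0 (47.2 to 68.2) and 52.4 (40.8 to 66.3) CPM in 185 SAR131675 and 117 control diet cells, with Dsg3 at 330 and 436 CPM. An infundibulum cluster led by Klk10, Sprr1a and Rptn held Dsc2 at 32.4 and 59.5 CPM, from 19 and 28 UMIs in 43 and 34 cells.

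Follicle clusters differed in several of the genes. The outer follicle cluster led by Slc7a8 and Fhod3, found in the diet pair, held Dsg2 at 197 (184 to 210) and 239 (217 to 263) CPM, the highest of any cluster. The clusters led by Krtap17-1 held Dsg3 at 349, 374, 325 and 252 CPM and Dsg1a at only 43.6, 64.9, 27.3 and 21.7 CPM. Hair and inner root sheath cells held Dsp at 1144, 1532, 616 and 684 CPM, below the level of basal cells in each library.

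Sweat gland cells numbered 417, 299, 87 and 81. They were marked by the simple epithelial keratin Krt18, found in 76.0%, 80.3%, 81.6% and 84.0% of them. Keratinocyte RNA was also counted there: the median of 9 keratinocyte genes (Krt5, Krt14, Krt1, Krt10, Krtdap, Sbsn, Lgals7, Sfn and Dmkn) was 26.3%, 13.6%, 12.2% and 18.4% of its level in keratinocyte-like cells. Dsg1a, at 28.5%, 12.8%, 8.47% and 9.31% of its keratinocyte level, lay inside the range of those genes. Dsg2, at 291%, 297%, 368% and 395%, lay far above it. Dsp was at 45.5%, 29.7%, 30.5% and 42.7%, above the median of the 9 genes in each library. The highest of the 9 genes stood at 40.8%, 35.5%, 45.2% and 55%, so that Dsp passed it in the SAR131675 library alone.

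The named endothelial classes held little of any of the 10. Dsp in LECs was at 59.1 (46.6 to 73.8), 32.2 (22.9 to 44.1), 29.4 (19.5 to 42.5) and 32.7 (21.2 to 48.3) CPM from 77, 39, 28 and 25 UMIs. In blood endothelial-like cells Dsp was at 47.1 (41.9 to 52.8), 42.0 (36.3 to 48.2), 22.7 (17.3 to 29.2) and 27.0 (21.2 to 33.9) CPM. The LEC level was 2.58%, 1.10%, 2.12% and 2.27% of the keratinocyte level, while the median of the 9 keratinocyte genes in LECs was 3.07%, 1.54%, 1.81% and 2.10%. The highest of the 9 genes stood at 4.49%, 2.27%, 4.11% and 6.66% there. Dsp in LECs did not pass it in any library, and lay below the median of the 9 genes in the diet pair and above it in the surgery pair. The part of keratinocyte RNA in these Dsp values was not tested.

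Another 138, 145, 213 and 240 endothelial cells lay in clusters left unnamed, most of them led by Ccl21a, and are in neither class. There Dsp stood at 1026, 1527, 621 and 727 CPM, which was 44.9%, 52.0%, 44.7% and 50.5% of its keratinocyte level. The median of the 9 keratinocyte genes was high there too, at 34.4%, 46.1%, 37.4% and 38.5%, and Dsp lay inside their range in each library. Most of this Dsp came from single clusters, at 1508 and 1942 CPM in the diet pair and 950 and 1023 CPM in the surgery pair.

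The mean log2 ratio of Dsp in LECs over blood endothelial-like cells was -0.03 (-0.49 to 0.41) in the diet pair and 0.33 (-0.38 to 1.00) in the surgery pair. The diet mean decides nothing, since LECs were higher in the SAR131675 library and lower in the control diet library. In the surgery pair LECs were higher in both libraries, with a range that held 0. After thinning each cell to 2000 UMIs, 10.0%, 3.95%, 4.96% and 0.943% of LECs held a Dsp UMI, against 22.0%, 12.6%, 9.52% and 7.95% before thinning. Thinned keratinocyte-like cells held a Dsp UMI in 94.1%, 96.1%, 83.9% and 84.0%, and thinned fibroblasts, which should lack it, in 11.3%, 7.98%, 20.8% and 25.5%. Thinning left out 28, 29, 68 and 70 shallower LECs.

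Plakoglobin was different. Jup, which also serves the adherens junction of vessels, stood at 294, 309, 297 and 332 CPM in LECs and 63.8, 57.6, 49.5 and 54.3 CPM in blood endothelial-like cells. That was 42.0%, 36.9%, 55.6% and 60.0% of its keratinocyte level in LECs, above the highest of the 9 keratinocyte genes there in each library.

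**Figure D4:**
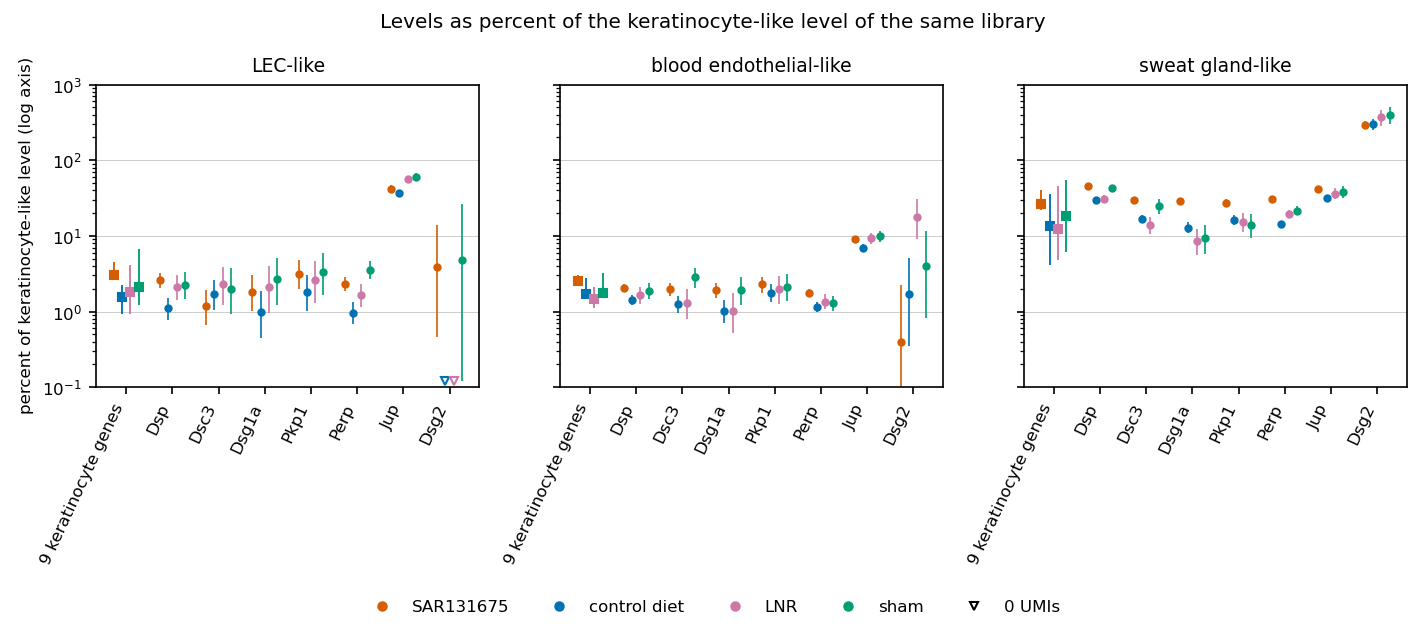
Level in LEC-like, blood endothelial-like and sweat gland-like cells as percent of the keratinocyte-like level of the same library (log scale) for desmosome genes, beside the median of 9 keratinocyte genes, whose bar runs from the lowest to the highest of them. Dsp in both endothelial classes lay below the highest of the 9 genes, Jup in LECs stood above it, and Dsg2 in sweat gland cells passed 100%.

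The first comparison asked how the desmosome genes stood in the digits of mice fed the VEGFR3 inhibitor. In keratinocyte-like cells 6 of the 10 genes were lower and 4 higher in the SAR131675 library than in the control diet library. Dsc1 differed most among the genes of the epidermis, at 262 against 423 CPM, a log2 ratio of -0.69 (-0.70 to -0.67). Pkp1 stood at 506 against 676 CPM, -0.42 (-0.43 to -0.41), and Dsp at 2286 against 2937 CPM, -0.36 (-0.37 to -0.36). Dsg1a and Dsg1b were at -0.24 and -0.26 and Dsc3 at -0.07. Dsg2 (0.13), Dsg3 (0.12), Dsc2 (0.20) and Dsg4 (0.58, from 99 and 54 UMIs) were higher.

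Past 0.5 on the log2 scale, the size used for counting, lay Dsg4 above and Dsc1 below, 2 of 10 genes, where 9.03% of 15946 genes with at least 100 UMIs did so in either direction, 4.95% higher and 4.08% lower. Dsg4 was below 0.5 in 7 of 11 alternatives, between 0.25 and 0.91 over all of them, and nail-type cells, where it was highest among keratinocytes, made up 4.74% of keratinocyte-like cells against 2.85%. The median over the 10 genes was -0.16, and over all genes -0.01. Keratinocyte composition differed as well, with suprabasal cells making up 30.6% of keratinocyte-like cells in the SAR131675 library and 36.9% in the control diet library. With the classes weighted alike, a value chosen after seeing the data, Dsg2, Dsg3 and Dsc2 changed sign, to -0.07, -0.07 and -0.17, Dsg4 stood at 0.32 and Dsg1a at -0.04, while Dsp (-0.32), Pkp1 (-0.30) and Dsc1 (-0.37) stayed lower.

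Class by class, Dsp, Pkp1 and Dsc1 were lower in the SAR131675 library in 7 of 7 keratinocyte classes, each with an interval below 0, as were 2.57% of 4831 genes with at least 100 UMIs in every class. Counting direction alone, 19.2% of these genes were lower in all 7. The intervals cover counting error only and are narrower for genes with more UMIs. Dsp ranged from -0.37 in the infundibulum to -0.18 (-0.24 to -0.12) in granular cells, with -0.30 (-0.32 to -0.29) in basal cells. Pkp1 ranged from -0.40 in the outer follicle to -0.26 in granular cells. Dsc1 ranged from -0.50 (-0.52 to -0.48) in spinous and volar cells, where 2.93% of genes were past 0.5 and lower, to -0.18 (-0.29 to -0.06) in basal cells. The value past 0.5 belonged to the pooled class alone: Dsc1 stood at -0.39 in spinous and -0.38 in volar cells taken apart, and between -0.39 and 0.02 in the 5 clusters of the class, of which the one richest in Dsc1 held 675 SAR131675 and 844 control diet cells. The basal clusters differed too. Dsc1 was lower in those led by Smoc2 (18.5 against 19.4 CPM) and Fosl1 (60.0 against 66.4 CPM). It was higher in those led by Tspear (17.8 against 15.4 CPM) and Foxp2 (12.8 against 10.5 CPM). The Fosl1 cluster, the basal cluster richest in Dsc1, held 734 of 4203 SAR131675 and 806 of 3503 control diet basal cells. The part of this makeup in the basal value was not tested. Dsg1a, in contrast, was between -0.12 and 0.07, higher in 4 classes and lower in 3. Its interval lay below 0 in those 3 and above 0 in no class.

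Of 60 values for genes and classes with at least 100 UMIs, 46 were lower, 14 higher and 2 past 0.5. The median of the desmosome genes was -0.09 in basal, -0.04 in cycling, -0.07 in spinous and volar, -0.16 in granular, -0.22 in infundibulum, -0.23 in outer follicle and -0.04 in nail-type cells. The median of all genes in the same order was -0.07, -0.07, -0.01, 0.01, -0.05, -0.03 and -0.04, so that in basal, cycling and nail-type cells the set lay near all genes. The values past 0.5 were Dsc1 in spinous and volar cells pooled and Dsc2 in the outer follicle, at 0.61 (0.01 to 1.23), where 6.01% of genes were past 0.5. The share of all genes past 0.5 was 5.38% in basal, 4.08% in cycling, 6.24% in spinous and volar, 9.49% in granular, 5.71% in infundibulum, 6.01% in outer follicle and 5.82% in nail-type cells.

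By keratin bins the result for the plaque genes was the same. Dsp in the SAR131675 library was at -0.33, -0.32, -0.25, -0.39 and -0.30 relative to the control diet library from the first to the last bin, and Pkp1 at -0.38, -0.40, -0.23, -0.33 and -0.31, all below 0. Dsc1 differed by bin, from 0.04 (-0.11 to 0.19) in the first to -0.28 (-0.47 to -0.09) in the fourth and -0.50 (-0.52 to -0.48) in the last. The plaque genes were thus lower in every bin, and the difference in Dsc1 was larger in bins with more Krt1 and Krt10. Like the pooled class, the bins join clusters, and Dsc1 in single spinous and volar clusters lay between -0.39 and 0.02. The part of cluster makeup in the Dsc1 values by bin was not tested.

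**Figure D5:**
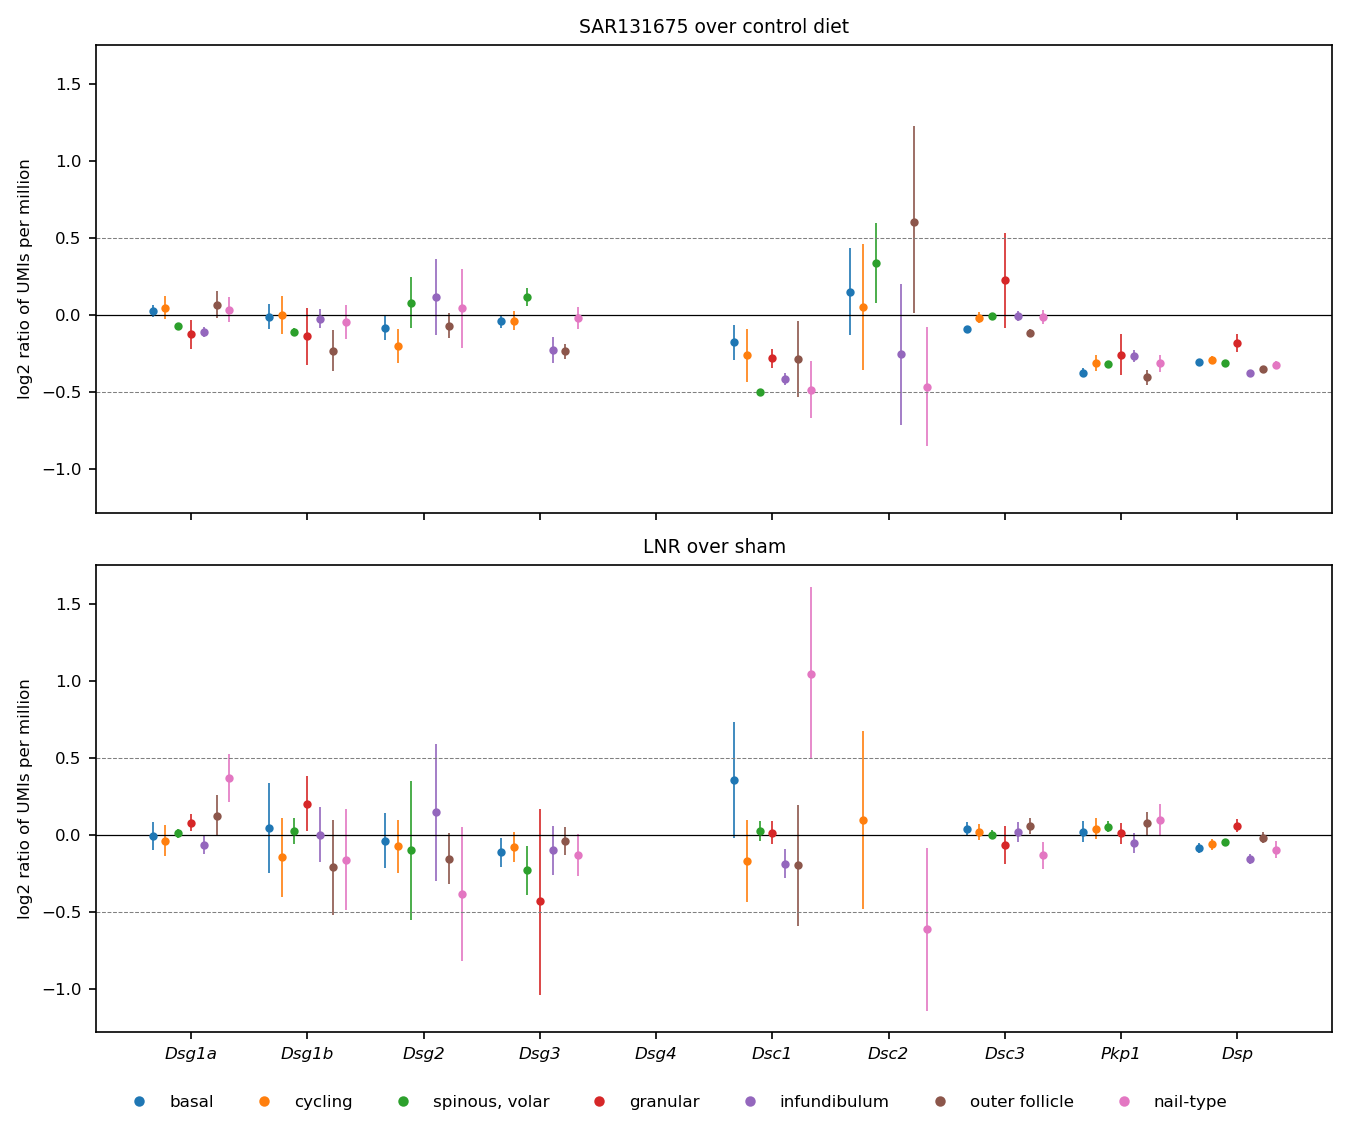
Log2 ratio of each desmosome gene, SAR131675 over control diet and LNR over sham, by cell class, with exact 95% intervals that cover counting error only; dashed lines mark -0.5 and 0.5, and values need at least 100 UMIs in the class and pair, a number that Dsg4 reached in none of the 7 keratinocyte classes plotted. Dsp, Pkp1 and Dsc1 lay below 0 in all 7 keratinocyte classes of the diet pair, as did 19.2% of genes with at least 100 UMIs in each class. Most values of the surgery pair lay near 0.

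Other genes of the desmosome were mostly lower too. Of 9 further desmosome genes, 7 were lower and 2 higher in keratinocyte-like cells, 2 of them past 0.5 and lower, where 4.08% of all genes were, with a median of -0.25. Cdsn, the corneodesmosome protein of the outermost layers, was at -0.81 (-0.85 to -0.78) and Ppl, periplakin, at -0.58 (-0.60 to -0.55). By class, Cdsn was lower in 4 of 5, between -0.87 and 0.20, and Ppl lay between -0.78 and -0.25. In granular cells the lowest ratio among 7 further desmosome genes was -0.27. Granular cells made up 1.43% of keratinocyte-like SAR131675 cells and 2.42% of control diet cells. The part of this makeup in the pooled values was not tested. Jup stood at -0.26, Pkp3 at -0.25, Perp at -0.17 and Evpl, envoplakin, at -0.31. Ppl and Jup were lower in 7 of 7 classes, with all intervals below 0, beside the same 2.57% of genes, or 19.2% by direction alone. Adherens junction genes were mixed, with 4 higher and 6 lower of 10 and none past 0.5. They ranged from -0.36 to 0.29 with a median of -0.02, with Cdh1, E-cadherin, at -0.00, Ctnnb1 at 0.20 and Vcl at 0.29. By class, Afdn was lower in 7 of 7, Nectin1 in 6 of 6, and Ctnna1, Nectin2 and Nectin4 in 6 of 7. Ctnnb1 and Vcl were higher in 7 of 7, and Cdh1, Cdh3 and Ctnnd1 were mixed. Shares of all genes lower in 6 of 7 or higher in 7 of 7 were not computed.

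Outside the keratinocytes the diet pair differed by tissue. In hair and inner root sheath 8 of 10 genes were lower, with a median of -0.28 where that of all genes was -0.06, and with Dsg1b at -0.62 (-0.80 to -0.44) past 0.5, where 7.40% of genes were, and Dsp at -0.42, Dsc3 at -0.33, Dsg2 at -0.30 and Dsg4 at -0.05 (-0.19 to 0.09). Krt25 was found in 42.6% of the 1087 SAR131675 cells and 37.3% of the 397 control diet cells there, at 2361 and 1536 CPM. The part of unlike makeup in these values was not tested. In sebaceous cells Dsc1 stood at -0.76 (-1.09 to -0.43), with 4.91% of genes past 0.5, and Dsp at -0.17, while Dsg3 at 0.21 (0.03 to 0.40), Dsc3 at 0.10 (0.03 to 0.17) and Dsc2 at 0.49 (-0.09 to 1.08) were higher. The sebaceous class held unlike shares of its clusters, with 594 SAR131675 and 451 control diet cells in the Pparg cluster and 203 and 286 in the lipid cluster. Dsc1 was at -0.14 (-0.63 to 0.36) in the former and -1.07 (-1.55 to -0.60) in the latter, and Dsg3 at 0.11 (-0.08 to 0.31) and -0.23 (-0.99 to 0.53).

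In sweat gland cells all 8 genes with enough UMIs were higher in the SAR131675 library and 4 were past 0.5, where 5.40% of genes were past 0.5 and higher. These were Dsc1 at 1.56 (1.04 to 2.12), Dsg1a at 0.92 (0.64 to 1.2), Dsg1b at 0.86 (0.34 to 1.41) and Dsc3 at 0.72 (0.51 to 0.93). The gland's own desmoglein, Dsg2, was at 0.10 (-0.19 to 0.39). The 9 keratinocyte genes stood at 26.3% of their keratinocyte level in the SAR131675 sweat gland cells and 13.6% in the control diet cells, and the part of this in the 4 values was not tested.

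Values in the vessels were also given beside those keratinocyte genes. Dsp in LECs was at 0.87 (0.30 to 1.47), where 3.46% of genes were past 0.5 and higher, beside keratinocyte genes at 3.07% against 1.54%. In blood endothelial-like cells Dsg1a was at 0.66 (0.07 to 1.28), Dsc3 at 0.57 (0.11 to 1.04) and Dsp at 0.17 (-0.10 to 0.43), where 2.42% were past 0.5 and higher, beside 2.51% against 1.69%.

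The second comparison asked the same of lymph node removal. In keratinocyte-like cells none of the 9 genes with at least 100 UMIs was past 0.5, where 2.25% of 13088 genes were. Dsp stood at 1390 CPM in the LNR library and 1439 CPM in the sham library, a log2 ratio of -0.05 (-0.06 to -0.04), and Pkp1 at 447 and 434 CPM, 0.04 (0.02 to 0.07). Dsg1a was at 0.03 (0.01 to 0.05), Dsc1 at 0.00 (-0.04 to 0.04), Dsc3 at 0.02, Dsg2 at -0.09 (-0.19 to -0.00) and Dsg3 at -0.09 (-0.13 to -0.04). Dsg4 had only 22 UMIs. Of the 9, 5 were higher and 4 lower.

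By class, 25 of 57 values were higher and 32 lower, and 2 were past 0.5, both in nail-type cells, where 4.67% of genes were. They were Dsc1 at 1.04 (0.50 to 1.61) from 87 and 42 UMIs and Dsc2 at -0.61 (-1.14 to -0.09) from 52 and 79 UMIs. In the other classes the share of all genes past 0.5 was 1.61% in basal, 1.54% in cycling, 1.49% in spinous and volar, 4.52% in granular, 3.16% in infundibulum and 1.67% in outer follicle cells. Dsg3 was lower in the LNR library in 7 of 7 classes, between -0.43 and -0.04, with an interval below 0 in only 2. By direction alone, 4.92% of genes with at least 100 UMIs in every class were lower in all of them. Dsp was lower in 6 of 7, with an interval below 0 in 5, while granular cells stood at 0.06 (0.02 to 0.10). The share of all genes lower in 6 of 7 was not computed. The infundibulum had the lowest ratio of Dsp, at -0.16, and Dsc1 there was at -0.19.

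In hair and inner root sheath of the surgery pair Dsc1 was at -0.84 (-1.14 to -0.53), where 3.38% of genes were past 0.5. Inner root sheath cells, which held Dsc1 at 217 and 274 CPM against 10.6 and 11.4 CPM in the Krt35 cluster, numbered 34 in the LNR and 67 in the sham library, and their part in this value was not tested. The unnamed epithelial cluster led by Krt71, S100a3 and Krt25, with 8 LNR and 386 sham cells, was left out of this class. Sebaceous Dsg3 was at -0.56 (-1.09 to -0.04), with 2.94% of genes past 0.5. Sweat gland cells held lower Dsp, -0.53 (-0.76 to -0.30), and Dsc3, -0.83 (-1.35 to -0.32), where 10.5% of genes were past 0.5, beside keratinocyte genes at 12.2% against 18.4%; Dsg2 there was at -0.20 (-0.73 to 0.34). Of 7 further desmosome genes in keratinocyte-like cells, 5 were lower and 2 higher, none past 0.5.

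Across cell classes, each of the 10 had a profile shared with other genes. Likeness was the Pearson r of log2(CPM + 1) over 24 classes in the diet pair and 25 in the surgery pair, given as a description since classes of a pair share libraries, and genes were ranked by the lower of their r values in the 2 pairs. Dsp was most like Perp (r = 0.987 and 0.989), which encodes a desmosome-associated membrane protein, and Lgals7 (0.987 and 0.981). Pkp1 was most like Serpinb5 (0.994 and 0.974). Dsg1b was most like Adgrf4 (0.938 and 0.935) by this rule, while Dsg1a (0.973 and 0.928) was more alike in the diet pair. Dsg1a was most like Fads2b (0.985 and 0.971), Grhl3 (0.963 and 0.965), a transcription factor of the epidermal barrier, and Evpl (0.96 and 0.958). Dsg3 was most like the basal keratin Krt5 (0.943 and 0.95) and the hemidesmosome collagen Col17a1 (0.926 and 0.947).

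Dsc1 was most like the granular layer lipase Lipm (0.968 and 0.953), and Dsc3 like Fam83b (0.972 and 0.965) and Trp63 (0.966 and 0.959), the master regulator of stratified epithelium. Dsg2 was most like Krtcap3 (0.946 and 0.899) and Ovol2 (0.952 and 0.883), an epithelial transcription factor, and Dsg4 like the follicle keratins Krt75 (0.877 and 0.876) and Krt35 (0.870 and 0.851). Dsc2 had the weakest likeness, to Ap3s2 (0.763 and 0.817). Among the 10 themselves, Dsg1a and Dsc1 ran together (0.9 and 0.935), whereas Dsg2 and Dsc1 showed no likeness (0.055 and 0.022).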

How the data were processed

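The count tables were deposited by the authors as 10x Genomics matrices of whole UMI counts per gene and barcode, 1 per library. Per the labels, Cell Ranger 6.1.2 and GRCm39 were used; the matrix headers name version 8.0.1 for the diet pair and 6.1.2 for the surgery pair. The limits the study states for its LNR data were applied to both pairs: 200 to 5500 genes, at most 30000 UMIs and at most 10% mitochondrial UMIs; none are stated for the diet pair. These removed more barcodes in the diet pair, where 15.1% and 12.9% were over the gene limit, against 1.36% and 1.24% in the surgery pair. Doublets were left in, and their removal with Scrublet (4.67%, 0.907%, 7.41% and 6.97% of kept cells) was an alternative. The calls were well short of the 23.3%, 19.2%, 15.9% and 16.5% expected from the cell numbers, so most doublets may remain there too.

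Each pair was clustered apart with scanpy 1.11.5 (2000 variable genes, 30 components, 20 neighbours, resolution 0.7) in Python 3.11.15, and epithelial and endothelial cells were clustered again, without the desmosome and adherens junction genes. Clusters were named from marker lists, and the scoring rule was chosen after the clusters' leading genes were seen. The genes described and the lists were chosen with earlier results of these data known. The rule named all 10 genes, 9 further desmosome genes, 12 adherens junction genes and the 3 genes most alike in profile.

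UMIs were summed by class and library and divided by the class total. Levels have exact Poisson, shares Clopper-Pearson and ratios exact conditional 95% intervals, which treat UMIs as independent. Ranges of means over the libraries of a pair are means of the bounds of single libraries. A count of 0 allows 3 UMIs. With 1 library per condition no test across samples was made. The scripts were tested on simulated data. In all, 10 alternatives were planned and 3 were added after seeing the data. Sequences and genome positions were not used here.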

Additional observations from a re-analysis of the deposited data

How the results depend on the processing

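No paired analysis was possible because each condition was 1 library of pooled digits and the labels give no replicate number that pairs libraries across groups, although the study took the sham digits from the opposite limb. For the same reason no replicate could be left out, and the cause of each shift below was not tested. In the diet pair 107 of 110 values of single desmosome genes kept their direction over 11 alternatives, the exceptions being Dsg2, Dsg3 and Dsc2 with classes weighted alike. Dsp stayed between -0.39 and -0.32, Pkp1 between -0.46 and -0.30 and Dsc1 between -0.80 and -0.37. In the surgery pair, where most values lay near 0, 93 of 110 kept their direction. The diet median of the 10 genes (-0.16) was -0.13 with no upper limits, -0.18 with at most 5% mitochondrial UMIs, -0.21 with each library clustered alone, -0.12 as a mean per cell, -0.13 after thinning, -0.18 with cells chosen by marker UMIs and -0.0707 with classes weighted alike. The surgery median (0.01) was -0.0638 with marker UMIs. Dsg4, with 22 UMIs in the surgery pair, was at 0.67 and turned to -0.10 without doublets, -0.24 with marker UMIs and -0.15 with unnamed epithelial clusters added.

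The suprabasal minus basal share of Dsg1a and Dsg1b stayed positive throughout. In the diet pair (44.3) it was 41.3 with no upper limits, 43.6 with 5% mitochondrial UMIs, 52.2 without doublets, 49.0 and 51.7 at resolutions 0.4 and 1.2, 50.3 with libraries clustered alone and 60.1 with marker UMIs. In the surgery pair (48.5) the same settings gave 55.4, 53.8, 53.7, 53.6, 55, 51.9 and 61.5, and the mean per cell 50.5. Dsp in LECs over blood endothelial-like cells was unstable: in the diet pair (-0.03) it was -0.87 with no upper limits and 1.33 with marker UMIs, and in the surgery pair (0.33) -0.55 with no upper limits and 1.58 with 5% mitochondrial UMIs. Subtracting the level of the 9 keratinocyte genes left no diet value and gave 0.93 in the surgery pair. With a minimum of 20 UMIs, 15.3% and 8.01% of genes were past 0.5 in place of 9.03% and 2.25%. Depth limits Dsg4, Dsc2 and all endothelial values.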

Other observations

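Several desmosome genes outside the 10 marked cells other than keratinocytes. Pkp2, the plakophilin of heart and simple epithelia, was nearly undetected in keratinocyte-like cells, at 0.587, 0.441, 0.297 and 0.257 CPM in the SAR131675, control diet, LNR and sham libraries. In sweat gland cells it stood at 46.9, 62.7, 15.6 and 18.8 CPM, from 105, 93, 11 and 10 UMIs, and in sebaceous cells at 20.2, 20.4, 8.18 and 9.33 CPM. Sweat gland cells therefore held both Dsg2 and Pkp2 at levels above those of keratinocyte-like cells, and sebaceous cells also held more Pkp2 than keratinocyte-like cells in all 4 libraries and Dsg2 at 194%, 213%, 92.5% and 90.1% of the keratinocyte-like level. Pkp4, a plakophilin relative also found at adherens junctions, was highest in vessels, at 517, 627, 225 and 233 CPM in LECs and 580, 614, 154 and 157 CPM in blood endothelial-like cells against 72.7, 83.8, 27.0 and 26.0 CPM in keratinocyte-like cells. Ppl stood at 150, 223, 100 and 106 CPM in keratinocyte-like cells and at 137, 152, 101 and 79.8 CPM in LECs, but at 3.53, 4.64, 1.92 and 4.07 CPM in blood endothelial-like cells.

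The share of Dsg1b in the summed UMIs of Dsg1a and Dsg1b was 23.0% and 23.2% in keratinocyte-like cells of the diet pair and 11% in both libraries of the surgery pair. The counting software version, the depth and the batches differed between the pairs too, and these cannot be told apart. In both pairs the share was higher in nail-type cells, at 34.1%, 35.4%, 16.1% and 21.8%, and in sebaceous cells, at 45.8%, 51.7%, 39.0% and 45.6%. An unnamed epithelial cluster of the diet pair led by Prr9, Wfdc21 and Slurp1 held 393 SAR131675 and 834 control diet cells, with Dsp at 2035 and 3312 CPM, Dsg1a at 809 and 1039 CPM and Dsc1 at 516 and 814 CPM. It was shallow, with a median of 1474 and 1268.5 UMIs per cell against 11316 and 10712 in all kept cells.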
